A study of Homo sapiens with 6 samples.

Results

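FBXO32, ERBB3, KLF9, PDK4 and PIK3IP1 are 5 genes that are known to be raised when FOXO transcription factors are active, or that act in the PI3K pathway that restrains FOXO. They were chosen by gene name, with earlier results of these data known, and each has 1 entry among the 2128 genes of the deposited tables. Expression was measured by RNA-seq in SNU668, an established human cell line from a signet ring cell carcinoma of the stomach, in 6 libraries. In all, 3 libraries are titled shControl and carry the genotype label WT, so whether they hold a control hairpin is uncertain. The other 3 are titled shGPER and labelled as GPER knockdown, by a short hairpin RNA against GPER1, which encodes an estrogen-binding G protein-coupled receptor. No drug or time point is labelled, and neither the number of hairpins nor the cultures behind the libraries are given in the labels. The p-values below therefore measure the spread between these libraries, which may be technical.

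FOXO factors are the main transcriptional end of PI3K and AKT signaling. PI3K makes a membrane lipid that brings AKT to its activating kinase PDPK1, and AKT then phosphorylates FOXO proteins and keeps them out of the nucleus. When that signal falls, FOXO proteins enter the nucleus and turn on genes of protein breakdown, fuel choice, cell cycle arrest, cell death and autophagy, together with growth factor receptors that feed back on PI3K. In epithelial cancers, ERBB3 is known to rise in this way when PI3K or AKT is inhibited. The question put to the 5 genes is whether their RNA levels moved as a readout of PI3K and FOXO activity would. RNA levels alone were measured, and neither AKT phosphorylation nor the location of FOXO proteins was.

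The tables hold part of the transcriptome. Their values, TPM, state how much of all transcripts in a library a gene accounts for, corrected for length, against a total set equal for every library. Those of the 2128 genes summed to 6.12 to 6.42% of that total in shControl and to 4.66 to 4.91% in shGPER. The groups did not overlap for 97.4% of the 1651 genes that reached 1 TPM in at least 3 libraries. Among 1164 genes with a group mean of at least 5 TPM, 5 had group means within 1.5-fold of each other. The table thus held mostly genes that differ between the groups, and the sources used here do not state the rule that chose them. That a gene differs is therefore not independently shown by a test below. GPER1 itself was at 11.04, 11.00 and 10.41 TPM in shControl and at 1.83, 2.41 and 2.47 TPM in shGPER, 20.7% of the control mean.

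All 5 genes were higher in shGPER cells, with no overlap between the groups, and rose by 2.08 to 3.19-fold in mean TPM. A gene is called here when its adjusted p is under 0.05 (limma on log2(TPM + 1), adjusted over 1651 genes). By this rule 5 of the 5 genes were called higher, beside 47.8% of all tested genes called higher and 50.6% called lower. The 5 genes were chosen with earlier results of these data known, so no call or p among them counts as support. PIK3IP1 also passed the filter through the shGPER libraries, since of its shControl libraries library 2 alone reached 1 TPM (1.22 TPM). The others were at 1 TPM or more in every library. The shGPER values lay wholly above the shControl values for 47.3% of tested genes. The median log2 fold change was 0.94 for the 5 genes, -0.49 for all tested genes and 1.13 for the genes called higher. For each gene a two-sided exact permutation test of 3 libraries against 3 returned p = 0.1, the smallest value this design allows. In bulk libraries such as these, more cells that express a gene and more of its RNA per cell cannot be told apart.

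**Figure D1:**
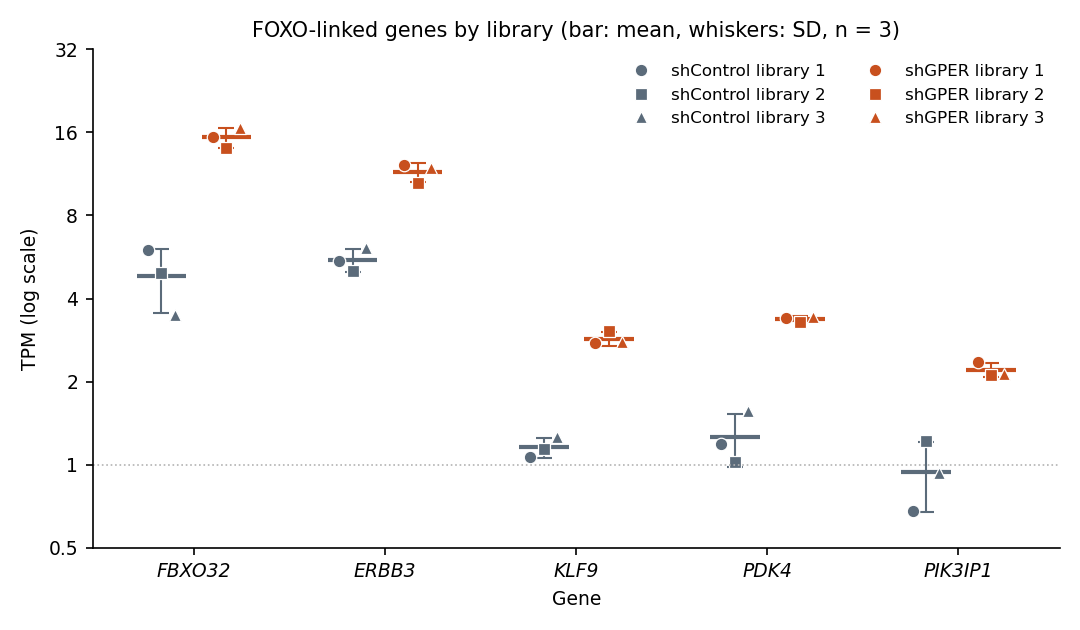
TPM of the 5 genes in each library, on a log scale, with shControl libraries in grey and shGPER libraries in orange; bars are means and whiskers SDs (n = 3), and the dotted line marks 1 TPM. For each gene the lowest shGPER library lies above the highest shControl library, from 2.12 against 1.22 TPM for PIK3IP1 to 14.04 against 5.99 TPM for FBXO32.

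The receptor of the set is ERBB3 (ENSG00000065361; chromosome 12, 56076799 to 56103505, plus strand, GRCh38). It binds neuregulins, has little kinase activity of its own and, in a dimer with another ERBB receptor, recruits PI3K directly. The shControl libraries held ERBB3 at 5.46, 5.03 and 6.08 TPM, and the shGPER libraries at 12.16, 10.48 and 11.90 TPM. Each group was tight, with means of 5.52 ± 0.528 and 11.5 ± 0.904 TPM (SD, n = 3 each). The log2 fold change was 0.94 (SE 0.10, 95% interval 0.71 to 1.17; limma, adjusted p = 2.8e-05). In GENCODE it overlaps AC034102.2 on the same strand, and 2.46% of its 31-base words also occur in transcripts of other genes.

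EGFR, the ERBB family's receptor for epidermal growth factor, went the other way. It was at 38.42, 39.33 and 40.30 TPM in shControl and at 12.82, 14.97 and 13.05 TPM in shGPER, so its log2 fold change was -1.47 (SE 0.08; adjusted p by limma = 6.03e-07). Within a library, where no scaling of the library matters, the ratio of ERBB3 to EGFR TPM was 0.142, 0.128 and 0.151 in shControl and 0.949, 0.70 and 0.912 in shGPER. ERBB3 thus lay far below EGFR in each shControl library and nearer to it in each shGPER library. The ratio was 1 of 5 such ratios, all formed after the values were seen; each gave an exact permutation p of 0.1 except PIK3IP1 to PIK3R2 (p = 0.3). NRG2, a neuregulin, had means of 1.17 ± 0.189 TPM in shControl and 2.58 ± 0.426 TPM in shGPER (SD, n = 3 each) and a log2 fold change of 0.72 (limma, adjusted p = 0.000727). It passed the filter on low values through the shGPER libraries, and once the trend with GC content described further on was removed it was called lower (-0.32, adjusted p = 0.0327).

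The inhibitor of the set is PIK3IP1 (ENSG00000100100; chromosome 22, 31281593 to 31292534, minus strand), a membrane protein that binds the catalytic subunit of PI3K and lowers its activity. It was the least abundant of the 5, at 0.68, 1.22 and 0.93 TPM in shControl and at 2.36, 2.12 and 2.14 TPM in shGPER. The shControl libraries spread by 1.79-fold, and 2 of them lay under 1 TPM. Mean levels came to 0.943 ± 0.270 and 2.21 ± 0.133 TPM (SD, n = 3 each). The log2 fold change was 0.73 (SE 0.13, 95% interval 0.44 to 1.03; limma, adjusted p = 0.000571). It was 1.18 with a pseudocount of 0.1, and 0.28 with quantile normalization, where the call was lost (adjusted p = 0.0647). PIK3IP1-AS1 overlaps it on the opposite strand, and the sources used here do not say whether counting used strand, so reads of the pair may not be told apart.

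FBXO32 (ENSG00000156804; chromosome 8, 123497889 to 123541206, minus strand) encodes atrogin-1, the substrate-binding subunit of an SCF ubiquitin ligase, best known as a FOXO target in wasting muscle. It was at 5.99, 4.96 and 3.49 TPM in shControl and at 15.37, 14.04 and 16.63 TPM in shGPER. The shControl libraries spread by 1.72-fold, yet the lowest shGPER library was 2.34-fold above the highest of them. Mean levels came to 4.81 ± 1.26 and 15.3 ± 1.30 TPM (SD, n = 3 each). The log2 fold change was 1.51 (SE 0.16, 95% interval 1.14 to 1.88; limma, adjusted p = 2.58e-05), which placed it at rank 122 of 1651 tested genes. PDK4 ranked 567, ERBB3 590, KLF9 659 and PIK3IP1 727, in the lower part of the 789 genes called higher. These ranks are on the log2(TPM + 1) scale, which shrinks changes of genes near 1 TPM. In mean TPM, ERBB3 rose the least of the 5 genes (2.08-fold), and PDK4 rose by 2.69-fold. The fold change of FBXO32 was the highest of the 5 genes, and its difference from the others was not tested.

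SKP1 and the other F-box genes named FBXO in the table fell. F-box genes of other names, looked up after the values were seen, were called in both directions (log2 fold change 1.49 for FBXL15 and -0.57 for FBXL4). SKP1, the linker that joins F-box proteins to the SCF core, averaged 666 ± 3.87 TPM in shControl and fell to 271 ± 26.3 TPM (SD, n = 3 each), with a log2 fold change of -1.30. The F-box genes FBXO5, a cell cycle inhibitor of the anaphase-promoting complex, and FBXO8 had log2 fold changes of -1.31 and -0.96. Without the trend with GC content described further on (the GC trend), SKP1 and FBXO5 were at -0.41 and -0.39, still called, and FBXO8 was not called (-0.10). The FBXO32 to SKP1 ratio within a library went from 0.00721 ± 0.00185 to 0.0570 ± 0.00695. Of the 3 F-box genes named FBXO in the table, FBXO32 was the one that rose.

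PDK4 (ENSG00000004799; chromosome 7, 95583499 to 95596491, minus strand) encodes a mitochondrial kinase that switches off pyruvate dehydrogenase and so turns cells from glucose to fatty acid oxidation. It was at 1.19, 1.02 and 1.56 TPM in shControl and at 3.40, 3.30 and 3.44 TPM in shGPER. The shGPER libraries agreed to within 1.04-fold, and the shControl libraries spread by 1.53-fold. Mean levels came to 1.26 ± 0.276 and 3.38 ± 0.0721 TPM (SD, n = 3 each). The log2 fold change was 0.96 (SE 0.12, 95% interval 0.69 to 1.24; limma, adjusted p = 6.58e-05). With quantile normalization it was 0.64, still called. No other gene of the PDK family and pyruvate dehydrogenase, of 11 listed, was among the genes analysed here. PDK4 is also a target of fatty acid receptors of the PPAR family. Of the 11 genes of the PPAR list, ACADM, an enzyme of fatty acid oxidation, and FABP4, a fatty acid binding protein, were in the table, and both fell, with log2 fold changes of -2.22 and -0.87; without the GC trend ACADM was at -1.31 and FABP4 was not called (0.06).

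KLF9 (ENSG00000119138; chromosome 9, 70384597 to 70414624, minus strand) encodes a zinc finger transcription factor that responds to FOXO, glucocorticoids and thyroid hormone and restrains proliferation in several cell types. It was at 1.07, 1.14 and 1.26 TPM in shControl and at 2.75, 3.04 and 2.79 TPM in shGPER. Spread within a group was the smallest of the 5 genes in shControl, at 1.18-fold. Mean levels came to 1.16 ± 0.0961 and 2.86 ± 0.157 TPM (SD, n = 3 each). The log2 fold change was 0.84 (SE 0.10, 95% interval 0.61 to 1.07; limma, adjusted p = 5.79e-05), and 0.44 with quantile normalization, still called. KLF5, a family member that promotes growth of gut epithelium, fell from 37.7 ± 2.03 to 16.7 ± 1.05 TPM (log2 fold change -1.13; -0.55 once the GC trend was removed). The KLF9 to KLF5 ratio within a library, formed after the values were seen, went from 0.0306 ± 0.00104 to 0.172 ± 0.0100 (SD, n = 3 each).

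The order of the levels was clearer in shGPER than in shControl. In shGPER the 5 genes did not overlap: FBXO32 was highest, then ERBB3, PDK4, KLF9 and PIK3IP1. In shControl, ERBB3 and FBXO32 overlapped between 5.03 and 5.99 TPM, and PDK4, KLF9 and PIK3IP1 overlapped near 1 TPM. No single shGPER library carried the rise. Library 2 was the lowest shGPER library for FBXO32, ERBB3, PDK4 and PIK3IP1 and the highest for KLF9. Without any 1 of the 6 libraries, the 5 genes stayed called, with log2 fold changes of 1.34 to 1.66 for FBXO32 and 0.63 to 0.83 for PIK3IP1.

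FOXO proteins bind a short DNA motif, and the start sites of the genes were searched for its letters. The RefSeq table (GRCh38.p14) holds windows for 3 of the 5 genes, KLF9, PDK4 and PIK3IP1, each with 250 bases before and 50 after a start site. The windows were searched on both strands for GTAAACA, the DAF-16 binding element preferred by FOXO, and for ATAAACA, a variant that forkhead proteins share; they differ in the first letter, so a stretch cannot match both. Of 35116 windows of the same length, 3.42% hold the first, 4.24% the second and 7.43% at least 1 of them. The KLF9 window, which is rich in A and T (GC content 32.7%, against a median of 58.7% over all windows), and 1 of the 2 PIK3IP1 windows held a match each, and the PDK4 window held none. The matching windows are printed 5′ to 3′ on the strand of the gene, with the match, read on the opposite strand, in capitals. The KLF9 window is chr9:70414608-70414907 and the PIK3IP1 window chr22:31292439-31292738, both on the minus strand.
KLF9: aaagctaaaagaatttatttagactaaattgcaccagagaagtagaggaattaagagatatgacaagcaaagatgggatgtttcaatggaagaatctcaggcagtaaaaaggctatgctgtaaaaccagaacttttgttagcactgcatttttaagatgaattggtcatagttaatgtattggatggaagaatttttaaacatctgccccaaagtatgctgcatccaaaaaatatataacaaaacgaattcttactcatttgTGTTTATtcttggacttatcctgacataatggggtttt
PIK3IP1: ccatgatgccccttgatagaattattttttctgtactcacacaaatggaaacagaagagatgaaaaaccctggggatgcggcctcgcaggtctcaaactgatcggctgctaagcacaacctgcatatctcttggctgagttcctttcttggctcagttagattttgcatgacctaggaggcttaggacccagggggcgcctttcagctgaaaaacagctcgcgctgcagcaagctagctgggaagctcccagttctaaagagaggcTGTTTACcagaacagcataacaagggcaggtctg
By the RefSeq start sites of these windows, both matches lie just inside the transcribed part. The first base of TGTTTAT is then base 13 of the KLF9 transcript and that of TGTTTAC base 17 of the PIK3IP1 transcript. The GENCODE start of KLF9, at 70414624, lies downstream of its match. That of PIK3IP1, at 31292534, lies upstream of the start used here, so its match falls further inside that transcript. A match describes letters in a window, and binding there was not measured.

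Fold changes in this table followed the GC content of the transcripts, and the 5 genes lay above that trend. Genes called higher had a median GC content of 59.6% and genes called lower 44.3%, whereas the 5 genes lay at 39.2% (PDK4), 46.3% (KLF9), 50.7% (FBXO32), 52.2% (ERBB3) and 54.7% (PIK3IP1). The tested genes were cut into 10 bins of nearly equal size by GC content. PDK4 lay in the lowest bin, 33.7 to 39.8%, in which 7 of 163 genes (4.29%) were called higher; its log2 fold change ranked 3 among these 163. KLF9 ranked 32 of 163 in a bin with 25.2% called higher, and FBXO32 ranked 7 of 162 in 1 with 29%. ERBB3 and PIK3IP1 shared a bin with 55.2% called higher, where they ranked 57 and 79 of 163.

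**Figure D2:**
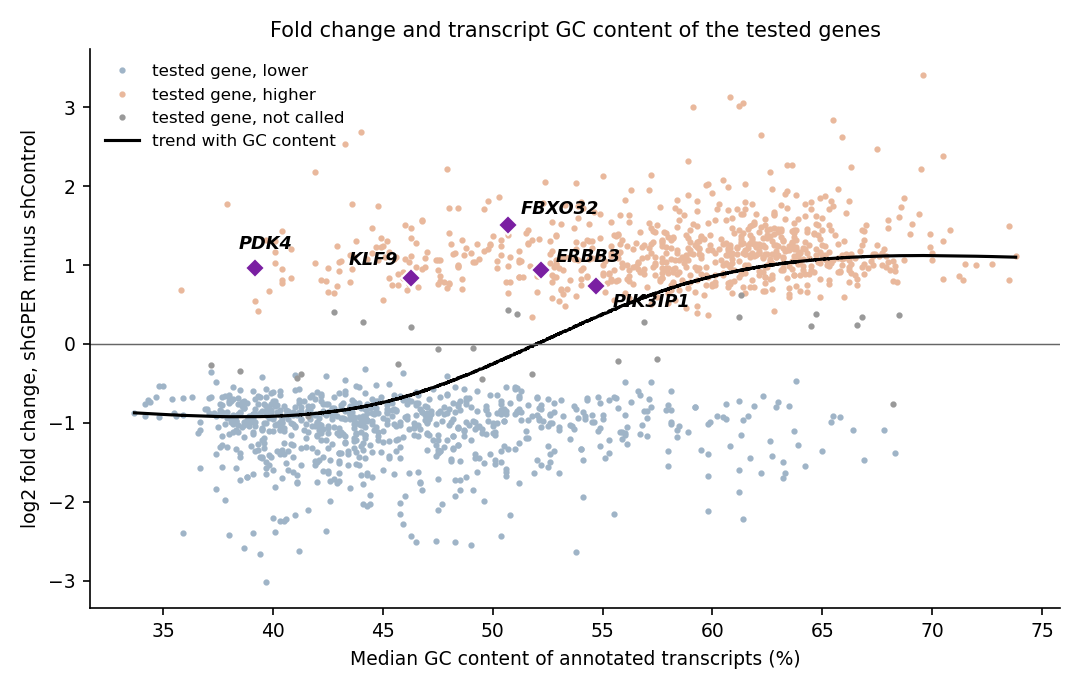
Log2 fold change (shGPER minus shControl) of each tested gene against the median GC content of its annotated transcripts in percent; points are genes by call, the line is the trend with GC content between the groups, and diamonds are the 5 genes. PDK4, KLF9, FBXO32, ERBB3 and PIK3IP1 lie above the line, PDK4 by the widest margin and PIK3IP1 by the narrowest.

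When each library's trend with GC content was removed, the 5 genes stayed higher, beside 31.5% of 1626 genes called higher and 31.1% called lower. The log2 fold change became 1.89 for PDK4, 1.48 for KLF9, 1.67 for FBXO32 and 0.91 for ERBB3 (limma, adjusted p = 3.01e-06, 3.69e-06, 6.18e-05 and 0.000125). That of PIK3IP1 became 0.40 (adjusted p = 0.0328). PDK4 then ranked 47, FBXO32 72, KLF9 112, ERBB3 218 and PIK3IP1 423 of 1626. The trend was estimated on these selected genes, and it lay at -0.922 for PDK4 and at 0.029 for ERBB3. Any gene that rose where the trend lay near or under 0 lies above it by construction. The 5 genes were chosen with earlier results known, so neither these values nor the ranks by GC content count as support.

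Other genes of the PI3K pathway lay on both sides, as the table as a whole did. Of 86 listed genes from ligands to FOXO factors, the 5 left aside, 15 were in the table and 14 were tested; 6 were called higher and 8 lower, with a median log2 fold change of -0.84. Over all tested genes 47.8% were higher and 50.6% lower, with a median of -0.49, so the split is near that of the whole table. Of the 14, 3 were higher, 6 lower and 5 not called without the GC trend, beside 31.5% higher and 31.1% lower over 1626 genes. Among receptors, MET, the hepatocyte growth factor receptor, fell with EGFR, from 68.1 ± 2.00 to 32.9 ± 1.82 TPM (SD, n = 3 each), while the fibroblast growth factor receptors FGFR3 and FGFR4 rose, each with a log2 fold change of 1.05. MET shrank to -0.23 from -1.03 on the log2 scale without the GC trend, still called. FGFR3 and FGFR4 lost their call without the GC trend (adjusted p = 0.982 and 0.926). PDGFRA, at 0.30 TPM or less in every library, was not tested. No gene of the 4 FOXO factors or the 7 adaptor genes was among the genes analysed here.

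The regulatory subunits of PI3K moved in opposite directions. PIK3R1, which encodes p85 alpha, fell from 9.73, 11.71 and 10.18 TPM to 5.25, 5.25 and 5.17 TPM, and PIK3R2, which encodes p85 beta, rose from 28.80, 31.02 and 38.92 TPM to 98.19, 119.26 and 135.24 TPM. The groups did not overlap for either gene, and the PIK3R2 to PIK3R1 ratio within a library went from 3.14 ± 0.608 to 22.5 ± 3.73 (SD, n = 3 each). The PIK3IP1 to PIK3R2 ratio was 0.0236, 0.0393 and 0.0239 in shControl and 0.0240, 0.0178 and 0.0158 in shGPER, and overlapped between the groups. The log2 fold changes of PIK3R1 and PIK3R2 were -0.89 (SE 0.09) and 1.80 (SE 0.14; limma, adjusted p = 2.76e-05 and 4.23e-06). PIK3R1 transcripts have a GC content of 39.2%, as those of PDK4, and PIK3R2 transcripts 64.5%. Without the GC trend PIK3R2 stayed higher (0.74) and PIK3R1 was not called (0.03).

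Downstream of PI3K, 5 of the 6 tested genes of the AKT and mTOR arm fell, beside 50.6% of all tested genes. Without the GC trend 3 of the 6 were lower, beside 31.1% of 1626 genes. PDPK1, the kinase that activates AKT, was at 22.17, 22.47 and 19.72 TPM in shControl and at 7.86, 10.04 and 10.02 TPM in shGPER, and its log2 fold change was -1.13 (SE 0.11; adjusted p by limma = 1.39e-05). Without the GC trend its fall was steeper, at -1.62. MTOR, the kinase of the mTOR complexes, RHEB, the GTPase that activates it, RPS6KB1, its target S6 kinase, and SGK3, a kinase related to AKT, had log2 fold changes of -0.86, -1.16, -0.82 and -0.95. Those of MTOR and RHEB shrank to -0.27 and -0.37 without the GC trend, still called, whereas RPS6KB1 (0.04) and SGK3 (-0.03) lost their call. AKT1S1, an inhibitory subunit of the mTOR complex that AKT releases, rose from 64.3 ± 1.80 to 175 ± 20.7 TPM (SD, n = 3 each), and TRIB3, a pseudokinase that binds AKT, had a log2 fold change of 1.27. Without the GC trend they were at 0.37 and 0.29, still called.

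**Figure D3:**
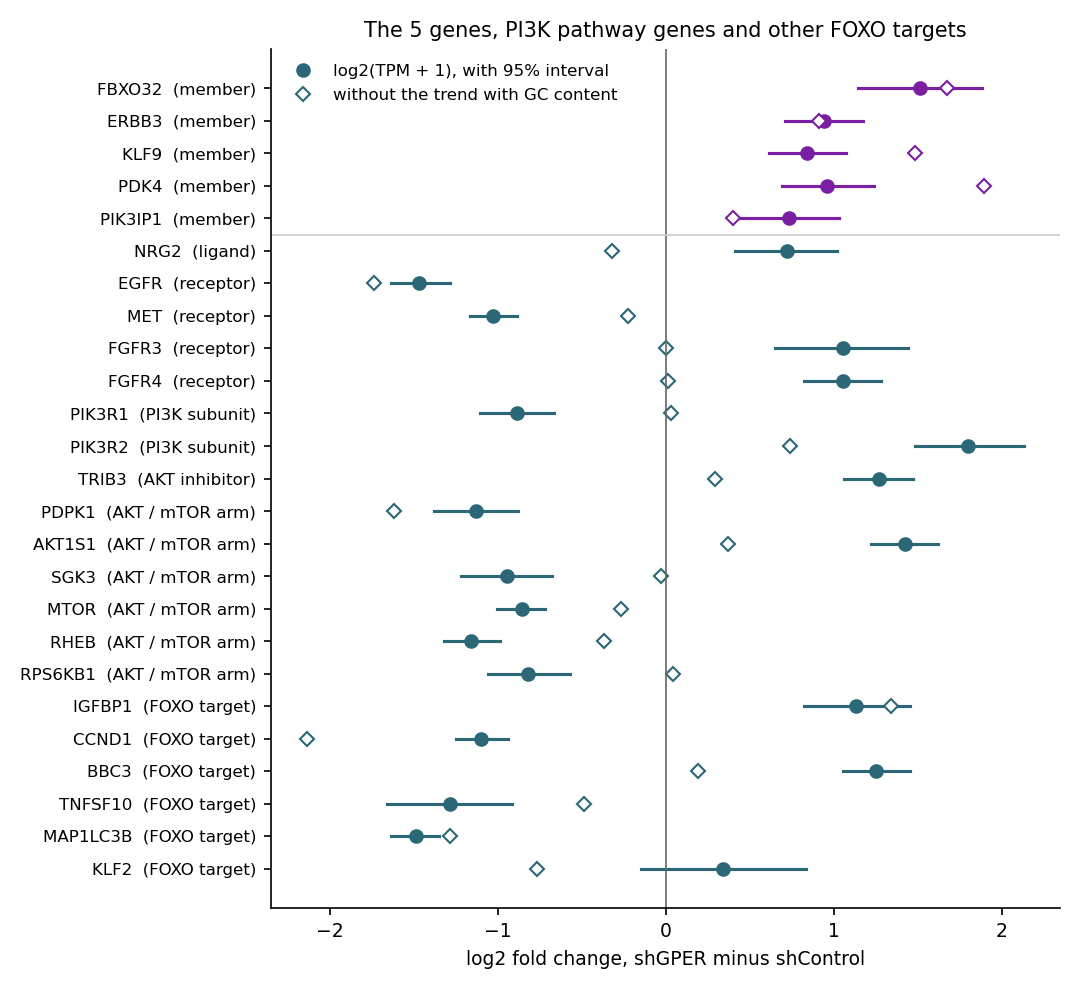
Log2 fold change (shGPER minus shControl) of the 5 genes (purple) and of the tested genes of the PI3K pathway and FOXO target lists (teal); filled points with lines are values on the log2(TPM + 1) scale with their 95% intervals, and open diamonds are values without the trend with GC content. The 5 genes lie right of 0 on either scale, and the listed genes lie on both sides, from -1.49 for MAP1LC3B to 1.80 for PIK3R2 on the log2(TPM + 1) scale and from -2.14 for CCND1 to 1.34 for IGFBP1 without the GC trend.

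Few further known FOXO targets were in the table, and they lay on both sides, as the table as a whole did. Of a list of 57, 6 were in the table and tested, and 2 were called higher, 3 lower and 1 neither. Over all tested genes 47.8% were higher and 50.6% lower. The median log2 fold change was -0.38 for the 6 and -0.49 for all tested genes. The 3 lower genes include CCND1, which FOXO proteins are known to repress, so the counts pool raised and repressed targets. Without the GC trend 2 of the 6 were higher and 4 lower, CCND1 again among the lower, with a median of -0.63. Over all 1626 genes 31.5% were then higher and 31.1% lower, with a median of 0.01. IGFBP1, an insulin-like growth factor binding protein of the liver and a classical FOXO target, was at 1.03, 0.79 and 0.98 TPM in shControl and at 2.58, 3.86 and 3.37 TPM in shGPER. It passed the filter on low values through the shGPER libraries, so its call was favoured by the group in which it is high. Its log2 fold change was 1.13 (SE 0.14; limma, adjusted p = 6.02e-05), and 1.34 without the GC trend. BBC3, which encodes the cell death protein PUMA, rose from 16.2 ± 1.32 to 39.9 ± 3.09 TPM (SD, n = 3 each), with a log2 fold change of 1.25 that shrank to 0.19 without the GC trend.

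The FOXO-linked death ligand TNFSF10 (TRAIL) was at 6.20, 4.24 and 4.70 TPM in shControl and fell to 1.68, 1.08 and 1.64 TPM in shGPER (log2 fold change -1.29; -0.49 once the GC trend was removed, still called). MAP1LC3B, the autophagosome protein LC3B, averaged 66.1 ± 2.74 TPM and fell to 22.8 ± 1.12 TPM (SD, n = 3 each); its log2 fold change was -1.49, and -1.29 without the GC trend. CCND1, cyclin D1, which FOXO proteins are known to repress, went down from 95.5 ± 2.51 to 44.2 ± 3.38 TPM, with log2 fold changes of -1.10 and, without the GC trend, -2.14. KLF2, at 0.29 to 1.37 TPM in shControl and 1.02 to 1.47 TPM in shGPER, overlapped between the groups and was not called (log2 fold change 0.34; limma, adjusted p = 0.150). It was called higher without shControl library 1 (0.57) and lower without the GC trend (-0.77).

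The authors deposited pathway terms beside the TPM, and lists were taken from them after the values were seen. Of 17 tested genes annotated by the authors' table with the KEGG FoxO signaling pathway, FBXO32 among them, 5 were called higher, 11 lower and 1 neither, with a median log2 fold change of -0.96. Besides FBXO32 and PIK3R2, those higher were TGFB3, a transforming growth factor, from 3.11 to 12.9 TPM, SETD7, a lysine methyltransferase, from 12.0 to 35.0 TPM, and MAPK11, the stress kinase p38 beta, from 7.92 to 23.5 TPM. Those lower included GADD45B, a stress protein, from 18.2 to 5.01 TPM, PRKAA1, a catalytic subunit of AMP-activated kinase, from 35.3 to 12.3 TPM, and CDKN2D, the cell cycle inhibitor p19, from 17.9 to 8.76 TPM. Without the GC trend 5 of the 17 were higher and 10 lower, beside 31.5% and 31.1% of all 1626 genes on that scale. MAPK11 then went from 1.46 to 0.44 and PRKAA1 from -1.47 to -0.59 on the log2 scale. GADD45B and CDKN2D went further down, to -2.52 and -1.90. Of 10 tested genes of the KEGG ErbB signaling pathway, ERBB3 among them, 6 were higher and 4 lower. The counts were 14 higher and 21 lower of 35 for the KEGG PI3K-Akt pathway, 4 and 6 of 10 for insulin signaling, and 7 and 7 of 14 for mTOR signaling. All tested genes gave 47.8% higher and 50.6% lower, so these counts are not read as results about the pathways. The higher and lower counts without the GC trend were 4 and 3 of 10 for ErbB and 8 and 14 of 35 for PI3K-Akt. They were 3 and 4 of 10 for insulin and 5 and 6 of 14 for mTOR signaling. The shares of 31.5% and 31.1% over all genes stand beside these counts as well.

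Glucocorticoids also raise FBXO32, KLF9 and PDK4, and of 13 genes of the glucocorticoid receptor list PER1 was in the table. PER1, a circadian clock gene, was at 3.09, 2.13 and 3.21 TPM in shControl and at 7.88, 12.98 and 7.92 TPM in shGPER. Its log2 fold change was 1.45 (SE 0.20; limma, adjusted p = 0.000133), and 0.46 without the GC trend, where it was not called (adjusted p = 0.0846). The part of glucocorticoid or PPAR signaling in the result was not tested.

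The genes whose profiles over the 6 libraries lay nearest to each of the 5 were found by the Euclidean distance between centred log2(TPM + 1) values. For FBXO32 they were FLT3LG, SLC16A14 and SRRM3 (distances 0.298, 0.316 and 0.327), and for ERBB3 they were MCAM, DUSP8 and FOXD1 (0.125, 0.194 and 0.204). KLF9 lay nearest to CASTOR2, CARD9 and CHRM4 (0.111, 0.111 and 0.118), PDK4 to GIMAP2, MCAM and DNAJC6 (0.143, 0.171 and 0.176), and PIK3IP1 to BCL2A1, KHDRBS3 and CORO7 (0.147, 0.212 and 0.235). Among the 5 genes themselves, ERBB3 and PDK4 were nearest, at 0.149, and FBXO32 stood farthest off, at 0.917 to 1.152 from the others. A distance reflects the size of the change as well as its direction. DUSP8, CARD9, CHRM4, GIMAP2 and BCL2A1 passed the filter through the shGPER libraries alone. KHDRBS3 reached 1 TPM in the shGPER libraries and in shControl library 2 (1.15 TPM). At such low levels log2(TPM + 1) shrinks a change: mean TPM rose by 5.35-fold for CHRM4 and by 2.47-fold for KLF9. Without the GC trend CARD9 and CORO7 were called lower (-0.27 and -0.40). MCAM, DUSP8, FOXD1, CASTOR2 and CHRM4 were then not called, and the rest stayed higher.

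FBXO32 and PDK4 are abundant in muscle, and none of 6 skeletal muscle or 5 leukocyte markers was among the genes analysed here. Of 12 gastric epithelial markers, TFF1 and CDH1 were, so the labelled cell type could be checked on these alone; TFF1 was at 4.44 to 6.22 TPM in shControl and fell to 0.26 to 2.91 TPM, and CDH1 was at 0.71 TPM or less in every library. Markers of other cell types moved in both directions. Of 8 neuroendocrine markers, 4 were in the table (CHGB, SYP, SCG2 and SCG3) and all rose, beside 47.8% of all tested genes called higher. Their summed level went from 6.82 to 7.41 TPM in shControl to 64.18 to 65.27 TPM in shGPER. CHGB and SCG3 were at 0.35 TPM or less in every shControl library, so they passed the filter through the shGPER libraries alone. The sum of 5 of 6 fibroblast markers went from 7.04 to 9.92 TPM to 31.93 to 33.27 TPM, through COL1A1, while DCN and LUM fell, and lost their call without the GC trend. CDH5, 1 of 4 endothelial markers, rose from 1.63 to 7.29 TPM. Their part in the result was not tested.

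**Figure D4:**
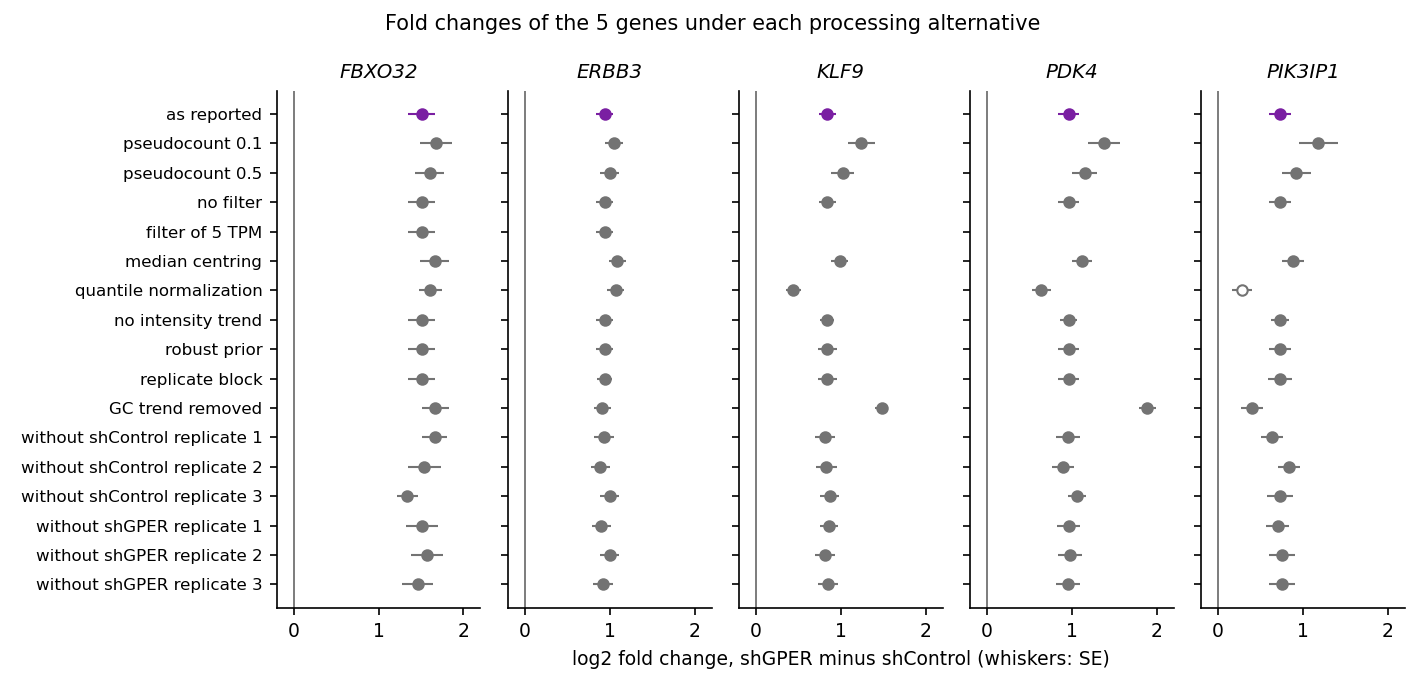
Log2 fold change of the 5 genes (panels) under each processing alternative (rows), with SE as whiskers; filled points are called and the open point is not, and a missing point means that the gene did not pass that filter. All values lie right of 0, and PIK3IP1 with quantile normalization (0.28) is the one that was not called.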

How the data were processed

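The authors deposited TPM values by gene in 1 table for each library. Build hg38 and the tools RSEM, HISAT2 and fastp are listed in the submitters' processing notes, without versions. TPM keep no read count, so depth is unknown and no counting error is given. Libraries were grouped by title. Genes with at least 1 TPM in at least 3 libraries were tested on the log2(TPM + 1) scale with limma 3.58.1 (R 4.3.3; two-sided, intensity trend in the variance prior, no covariate), which left out 477 genes, and p-values received the Benjamini-Hochberg adjustment. The fold change on this scale understates that of low genes. The fit was tested on simulated data in which 200 of 1651 genes were changed. Most genes of the real table differ, so that check does not show how the calls behave here. Positions and transcript GC content (median over transcripts) are from GENCODE 29 (GRCh38); 2078 genes matched. The GC trend was a natural spline with 3 degrees of freedom per library. Tables were handled in Python 3.11.15 (scipy 1.17.1, numpy 2.4.6, pandas 2.3.3).

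The 5 genes and all lists were chosen with earlier results of these data known. Named are the 5 genes, GPER1, listed genes (up to 6 per list, by smallest p), and the 3 nearest profiles per gene. Genes of the KEGG lists were named after their values were seen. As alternatives, the pseudocount was set to 0.1 or 0.5, the filter dropped or raised to 5 TPM, the scaling changed to quantile normalization or median centring, and the prior made robust or freed of its intensity trend; a replicate block was added, the GC trend removed, and each library left out in turn.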

Additional observations from a re-analysis of the deposited data

How the results depend on the processing

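The 5 genes kept their direction under every alternative run. Of their values under the alternatives, 76 stayed called and 1 did not, that of PIK3IP1 with quantile normalization (log2 fold change 0.28; limma, adjusted p = 0.0647, against 0.000196 to 0.0328 over its other alternatives). With a filter of 5 TPM, FBXO32 and ERBB3 were the 2 of the 5 genes left to call; KLF9, PDK4 and PIK3IP1 were not fitted. The same filter left 438 genes called higher and 675 lower, and of the FOXO target list 1 called higher and 2 lower. Without the GC trend 512 genes were called higher and 506 lower, and 3 genes of the PI3K pathway list were called higher and 6 lower. NRG2 (-0.32), PIK3R1 (0.03), RPS6KB1 (0.04), FABP4 (0.06) and KLF2 (-0.77) changed sign without the GC trend, and KLF2 also with quantile normalization (-0.12). The cause was not tested. Median centring raised every log2 fold change by 0.15. With the replicate number as a block the 5 genes stayed called (FBXO32 1.51, adjusted p = 0.000208), and 790 genes were called higher and 832 lower. Same-numbered libraries did not deviate together (correlations 0.033, -0.087 and 0.013 of deviations from group means), so the numbers are not taken as pairs; not every library correlated best with its own number. Depth is unknown, and KLF9, PDK4 and PIK3IP1 lie near 1 TPM in shControl.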
